A study of Mus musculus with 10 samples.

Results

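The Zfp zinc finger genes described here are the mouse genes whose symbol is Zfp followed only by a number, without Zfp42, and which reached at least 1 RPKM (reads scaled by transcript length and by library size) in at least 2 of 10 RNA-seq libraries. They number 286 of the 357 genes with such a symbol in the table, and of 11956 genes that met the same threshold. The threshold uses RNA levels, so it kept genes that were high in only some groups: 17 members reached it in ESC libraries only and 6 in NPC libraries only, while 229 were at or above 1 RPKM in all 10 libraries. For these 23 members a difference between the cell types follows in part from the choice. Just inside the threshold were Zfp783, Zfp46 and Zfp442, with second highest values of 1.013, 1.02 and 1.04 RPKM. Just outside were Zfp628, Zfp202 and Zfp583, with 0.981, 0.955 and 0.926 RPKM.

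Most Zfp genes encode proteins with rows of C2H2 zinc fingers, each a small fold that holds a zinc ion and reads a few bases of DNA. Many also carry a KRAB box near the start of the protein, which binds the corepressor TRIM28. TRIM28 brings the histone methyltransferase SETDB1 and HP1 proteins, among them HP1 gamma, the product of Cbx3, and the bound DNA becomes silent heterochromatin. In embryonic stem cells KRAB zinc finger proteins are best known for silencing retrotransposons and for keeping imprints. Their genes arose by repeated tandem duplication and lie in clusters. Other Zfp genes have no KRAB box and serve as activators, as RNA-binding proteins or in other ways.

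The RNA came from V6.5 mouse embryonic stem cells (ESCs), grown on irradiated fibroblast feeders with leukemia inhibitory factor, and from cells that the labels call NPCs, neural progenitor cells made from these ESCs through 4 days as embryoid bodies and then as a monolayer in ITSF medium. The 5 groups of 2 libraries were ESCs with control siRNA, ESCs with Cbx3 siRNA, NPCs with control siRNA, NPCs with Cbx3 siRNA and NPCs with Med26 siRNA. The control siRNA targets luciferase, and Med26 encodes a subunit of Mediator. NPCs were transfected on day 5 and harvested on day 8. The time between transfection and harvest is not given separately for ESCs. The labels call the replicates biological but do not say whether they came from separate cultures, so a p-value here covers only the spread between the libraries at hand. The target itself, Cbx3, dropped in NPCs from 9.37 and 9.65 to 0.425 and 0.248 RPKM, and in ESCs the values were 13.99 and 56.4 RPKM in control, against 1.007 and 1.96 RPKM. Among neural progenitor markers, Nes was at 34.9 and 33.4 RPKM, Sox1 at 9.22 and 8.29 RPKM and Pax6 at 3.39 and 3.42 RPKM in NPC control. Fabp7, Hes5 and Pou3f2 were below 1 RPKM there, and the pluripotency factor Pou5f1 was still at 484 and 497 RPKM. The ESC replicates stood apart: the correlation of log2(RPKM + 1) between replicates was 0.949 in both ESC groups and 0.995 to 0.996 in the NPC groups. Epithelial and pluripotency markers moved with that split, as Krt18 was 10.05 and 54.3 RPKM and Esrrb 53.4 and 13.7 RPKM in ESC control replicates 1 and 2.

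The largest difference in these data among Zfp genes lay in a run of neighbouring genes on chromosome 4. The run holds 16 genes with a Zfp number in the RefSeq gene order of GRCm38.p6, and 12 of them are members. Promoter sequences of 250 bases before to 50 bases after a transcript start were at hand from RefSeq (GRCm38.p6) for 10 of the 12. In 9 of the 10 a listed promoter holds the letters TATTGGGCG within a stretch of like sequence, and the promoter of Zfp933 does not. Stretches of 121 bases from 4 of these genes are shown, 5′ to 3′ on the strand of the gene, because they let the reader see how alike the promoters of the genes are that moved together. Capitals mark TATTGGGCG.
Zfp979: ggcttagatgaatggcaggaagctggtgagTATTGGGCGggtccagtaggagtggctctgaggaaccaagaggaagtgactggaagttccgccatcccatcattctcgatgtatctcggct
Zfp600: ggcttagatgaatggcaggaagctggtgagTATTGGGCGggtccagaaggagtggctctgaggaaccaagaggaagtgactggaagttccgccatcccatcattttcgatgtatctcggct
Zfp987: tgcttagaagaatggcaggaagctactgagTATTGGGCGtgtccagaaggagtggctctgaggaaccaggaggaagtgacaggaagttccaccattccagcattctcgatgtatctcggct
Zfp984: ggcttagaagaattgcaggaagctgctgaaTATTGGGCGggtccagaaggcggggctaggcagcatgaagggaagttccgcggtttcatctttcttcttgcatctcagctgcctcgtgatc
They lie at chr4:147642492-147642612 (minus strand), chr4:146156729-146156849 (plus strand), chr4:146097198-146097318 (plus strand) and chr4:147809785-147809905 (minus strand), all in GRCm38.p6. Base by base and without gaps, the stretch of Zfp600 matched that of Zfp979 at 98.3% of positions, that of Zfp987 at 90.9% and that of Zfp984 at 60.3%. Over the 8 other genes with the stretch, identity to Zfp979 ran from 60.3% to 98.3%. TATTGGGCG, searched on both strands, was in 39 of all 32851 promoters in the table (0.119%) and in the promoters of 11 of the 241 members that have one, the other two being Zfp947 and Zfp994. These letters were picked from the shared stretch, and the match says nothing of what binds there.

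The median member had a mean of 3.34 RPKM over the 10 libraries, and the median over all genes tested was 7.52 RPKM. A mean of at least 10 RPKM was reached by 43 members, and 88 had a mean below 2 RPKM. The highest member was Zfp207, which encodes a spindle assembly and splicing protein with few fingers, at 129 and 111 RPKM in ESC control, against 102 and 102 RPKM in NPC control. Next came Zfp568, a KRAB gene known for repressing a placental Igf2 transcript, at 44.2 and 41.0 RPKM in ESC control, against 44.7 and 47.1 RPKM in NPC control. The other members among the 10 highest were Zfp106, Zfp622, Zfp740, Zfp110, Zfp428, Zfp219, Zfp979 and Zfp266. Of these 10 only Zfp979 passed the test between NPC control and ESC control described next.

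A KRAB box was found by a sequence profile in 172 of the 285 members with a coding transcript in GENCODE, and 113 members had none by this search. KRAB genes had a median of 12 C2H2 fingers and a median level of 2.75 RPKM, and the others 7 fingers and 4.57 RPKM. The profile missed some weak boxes and did not mark Zfp180, so the group without a KRAB box is defined by the search alone. Of the 172 KRAB genes, 127 had another Zfp gene as a direct neighbour, against 30 of the 113 others.

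The comparison of NPC control with ESC control asks how Zfp genes differ between the cell types before any knockdown. Most of the Zfp genes that were lower in NPCs have a KRAB box. Of the 286 members, 49 fell and 12 rose in the limma test (adjusted p under 0.05), while over all genes 16% passed in either direction, 5.94% as lower and 10.1% as higher. The median change of the members was -0.13 on the log2(RPKM + 1) scale, and that of all genes tested was 0.03. Of the 172 KRAB genes 42 fell and 5 rose, with a median change of -0.28. Of the 113 members without a KRAB box 7 fell and 7 rose, with a median of 0.06. Among members at or above 1 RPKM in all 10 libraries, 31 of 131 KRAB genes and 7 of 98 others fell. In bulk RNA, fewer cells that express a gene and less RNA per cell cannot be told apart.

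**Figure D1:**
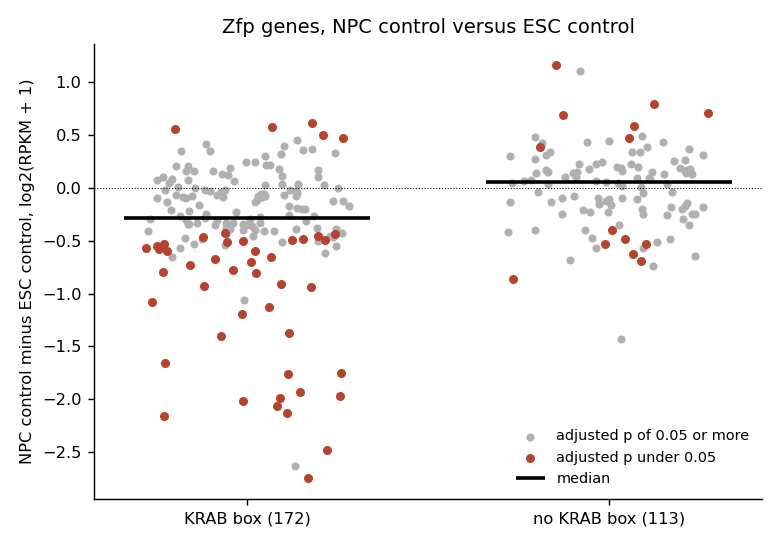
Change of each Zfp gene between NPC control and ESC control on the log2(RPKM + 1) scale, for 172 genes with a KRAB box and 113 without. Red points passed the limma test at an adjusted p under 0.05 and black lines are medians, at -0.28 with and 0.06 without a KRAB box.

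Summed over all KRAB members, RNA was at 930 and 899 RPKM in ESC control and at 606 and 640 RPKM in NPC control. The members without a KRAB box summed to 1089 and 897 RPKM in ESC control and to 950 and 935 RPKM in NPC control. The KRAB sums of the ESC and NPC control libraries did not overlap, and the other sums did. Without the 12 genes of the chromosome 4 run, the KRAB sums were 791 and 654 RPKM in ESC control, against 578 and 609 RPKM in NPC control, and 31 of these 160 genes fell and 5 rose.

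**Figure D2:**
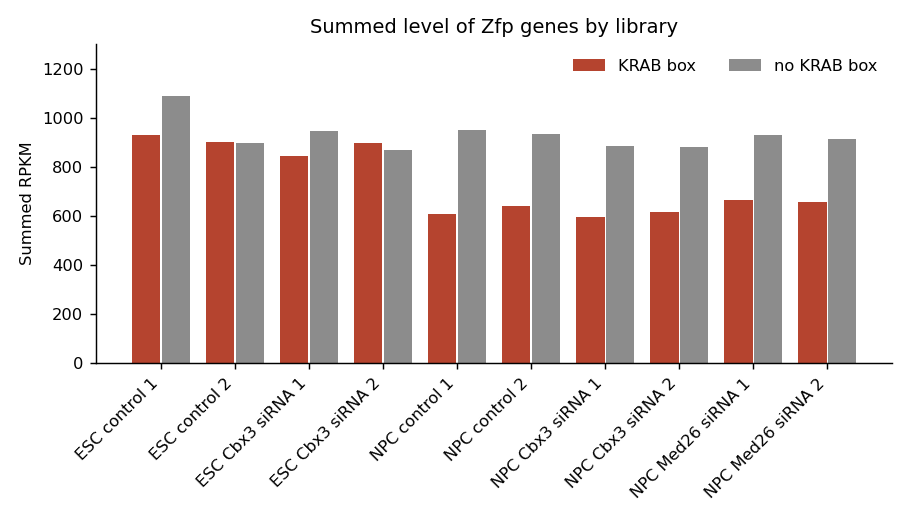
Summed RPKM of the Zfp genes with and without a KRAB box in each of the 10 libraries. KRAB sums lie between 842 and 930 in the 4 ESC libraries and between 595 and 666 in the 6 NPC libraries.

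All 10 of the largest falls were genes of the chromosome 4 run, a cluster of KRAB genes linked to the silencing of retrotransposons in mouse ESCs. Zfp979 was 46.6 and 49.0 RPKM in ESC control, against 5.85 and 6.69 RPKM in NPC control, a ratio of 7.62 (log2 change -2.75 with standard error 0.11, adjusted p = 0.000105). Zfp600 was 9.62 and 13.9 RPKM in ESC control, against 1.82 and 1.80 RPKM in NPC control (a log2 change of -2.16, adjusted p = 0.00124). Zfp980 was 16.2 and 19.8 against 3.37 and 3.68 RPKM (-2.06, adjusted p = 0.000777). For these genes every ESC library lay above every NPC library.

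Zfp985 was 14.6 and 19.2 RPKM in ESC control, against 3.25 and 3.86 RPKM in NPC control (a log2 change of -1.97, adjusted p = 0.00158). Zfp981 (-2.48), Zfp987 (-2.13), Zfp992 (-2.02), Zfp984 (-1.99), Zfp991 (-1.93) and Zfp982 (-1.76) fell too, with adjusted p from 0.0107 to 0.0408. The smallest change of the run was that of Zfp933, at 1.66 and 1.53 RPKM in ESC control, against 0.862 and 0.963 RPKM in NPC control (-0.44, adjusted p = 0.0438). Its promoter lacks the shared stretch, and no promoter was at hand for Zfp991 and Zfp992. Outside the run, Zfp947 and Zfp994 hold TATTGGGCG and had changes of -0.52 and -0.53. A link between the stretch and the changes was not tested. Zfp534, at 9.38 and 41.8 RPKM in ESC control, against 2.43 and 2.38 RPKM in NPC control, had a log2 change of -2.63 and did not pass (adjusted p = 0.0557). Thus 11 of the 12 passed, all as lower, and the median change over the 12 was -2.04.

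Within the ESCs the genes of the run split by replicate. Zfp534 was 4.45 times higher in ESC control replicate 2 than in replicate 1, and 4.81 times higher in replicate 2 with Cbx3 siRNA. Zfp987 (3.02 and 3.05 times), Zfp992 (2.73 and 3.11), Zfp984 (2.59 and 2.58) and Zfp981 (2.36 and 2.25) had ratios of the same kind. Zfp979 (1.05 and 1.20), Zfp980 (1.23 and 1.22) and Zfp985 (1.32 and 1.33) were nearly level between replicates. The summed level of the 12 genes was 139 and 136 RPKM in the ESC libraries of replicate 1 and 245 and 251 RPKM in those of replicate 2, and 27.3 to 36.2 RPKM in the 6 NPC libraries. The split was thus of similar size in control and Cbx3 siRNA cells. Among the ESC libraries the run was higher in replicate 2, where Krt18 was higher and Esrrb lower. In NPC control Krt18 was higher still (132 and 141 RPKM) and Esrrb lower still (1.18 and 0.913 RPKM), while the run was lower. The part of these markers in the split was not tested.

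**Figure D3:**
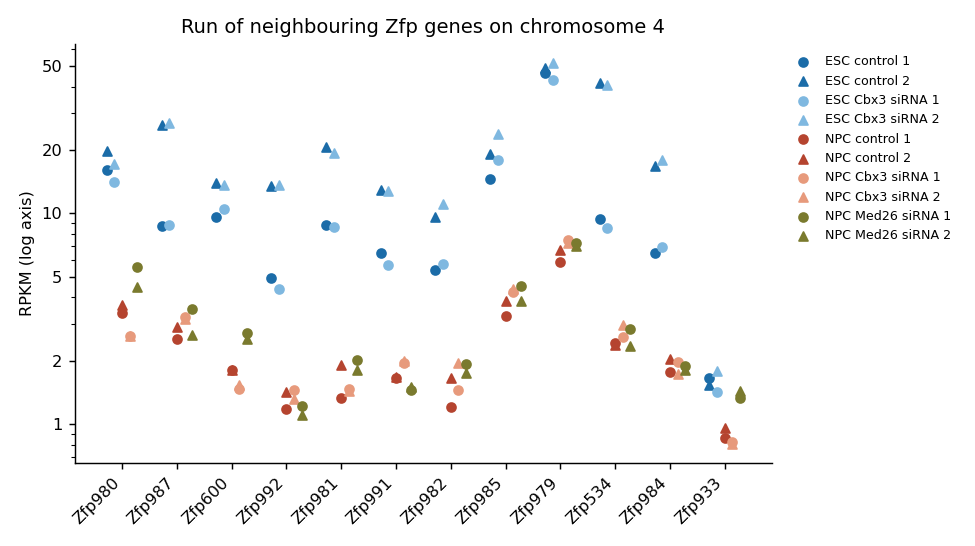
RPKM of the 12 Zfp genes of the chromosome 4 run in each library, in gene order, on a log axis. ESC libraries lie above NPC libraries for every gene of the run except that Zfp933 in ESCs (1.42 to 1.79) is near its values with Med26 siRNA (1.34 and 1.44), and replicate 2 of the ESCs (triangles) is above replicate 1 for most genes.

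Near-identical genes can share reads. The share of 50-base stretches of a member's transcript that also occur in a transcript of another GENCODE gene was 0.195% for the median member, and over 50% for 16 of the 286. In the run it ranged from 1.07% for Zfp933 to 92.1% for Zfp987. It was 82.55% for Zfp600, 71.3% for Zfp980, 23.6% for Zfp979 and 5.60% for Zfp982. For Zfp600 and Zfp980 the gene that shared the most was Rex2, with 74.57% and 58.55%. Levels of single genes with a high share are uncertain, since the sources used here do not give how reads with several matches were treated. Zfp979, Zfp985 and Zfp982, with 23.6%, 16.2% and 5.60% shared, had changes of -2.75, -1.97 and -1.76 between NPC and ESC control. Zfp933, with the lowest share, had the smallest change of the run (-0.44). The part of shared reads in these changes was not tested.

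Position alone gave 17 runs of at least 4 members with at most 10 other protein-coding genes between consecutive Zfp genes, and they hold 137 members. Of these, 29 fell and 4 rose in NPC control, against 20 and 8 of the 149 members outside runs. After the chromosome 4 run (median -2.04), the lowest medians were -0.81 in the run from Zfp788 to Zfp715 (4 of 6 members fell) and -0.49 in the run from Zfp60 to Zfp850 (3 of 4). At the other end, the run from Zfp786 to Zfp775 had a median of 0.36, with 2 of 8 members higher and 0 lower. The run medians thus lay on both sides of 0, and no test of their difference was made.

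Several KRAB genes with known roles were lower in NPC control. Zfp57, which keeps imprints by binding methylated DNA, was 40.4 and 14.2 RPKM in ESC control, against 7.21 and 6.73 RPKM in NPC control (a log2 change of -1.65, adjusted p = 0.0471). The ESC libraries of Zfp57 lay far apart, replicate 1 being the higher, and both were above the NPC control libraries. Zfp809, which silences murine leukemia viruses in ESCs, was 7.40 and 6.18 against 4.38 and 4.69 RPKM (-0.49, adjusted p = 0.025). Zfp932, a KRAB gene linked to endogenous retroviruses, was 5.46 and 5.57 against 1.92 and 2.06 RPKM (-1.13, adjusted p = 0.003).

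Zfp445, the other KRAB protein known to keep imprints, was 12.7 and 10.5 RPKM in ESC control, against 11.5 and 12.5 RPKM in NPC control (a log2 change of 0.05, adjusted p = 0.78). Zfp568 had a change of 0.11 (adjusted p = 0.492) and Zfp708 of -0.38 (adjusted p = 0.0726). Outside the run, and chosen after their values were seen, the largest falls among members that passed were Zfp808 (-1.75), Zfp57, Zfp459 (-1.41), Zfp936 (-1.37) and Zfp97 (-1.19). Zfp808 was 6.44 and 5.60 RPKM in ESC control, against 1.04 and 1.12 RPKM in NPC control.

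Of the 12 rises 7 were in genes without a KRAB box. Zfp608, a large regulator related to Zfp609, was 0.584 and 1.44 RPKM in ESC control, against 3.54 and 3.31 RPKM in NPC control (log2 change 1.17 with standard error 0.22, adjusted p = 0.0138). Zfp358 was 3.02 and 3.91 against 7.42 and 6.09 RPKM (0.80, adjusted p = 0.0270). Zfp821 was 5.59 and 4.73 against 8.44 and 9.46 RPKM (0.69, adjusted p = 0.00985).

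For Zfp608, Zfp358 and Zfp821 the control groups did not overlap. Zfp618 (0.71), Zfp334 (0.62), Zfp523 (0.59), Zfp282 (0.58), Zfp964 (0.56), Zfp867 (0.50) and Zfp746 (0.48) rose too, and of these 7 only Zfp618 and Zfp523 have no KRAB box by the search. Of the 30 genes without a KRAB box in the set with known roles, 4 fell and 0 rose. Zfp281, a zinc finger protein that shapes the exit from pluripotency, fell from 24.3 and 22.7 to 17.6 and 17.6 RPKM (-0.40, adjusted p = 0.0283). Zfp148 (-0.48, adjusted p = 0.0146), Zfp292 (-0.69, adjusted p = 0.0432) and Zfp532 (-0.53, adjusted p = 0.034) were the other falls. Zfp296, Zfp143, Zfp217, Zfp462, Zfp423, Zfp36 and Zfp598 were among those that did not pass, with changes from -0.73 (Zfp296) to 0.20 (Zfp598).

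This comparison rests on few libraries, and its count moved with each of several choices. Without ESC control replicate 1 the count of members that passed was 40 in place of 61, and without either NPC control library it was 11, all lower. Without any 1 library of the NPC siRNA groups it was 32 or 33, and a fit of only the 4 control libraries called 6, all lower. With a replicate block within each cell type it was 169, or 59.1% of the members, beside 57.8% of all genes. Zfp979, Zfp600, Zfp980, Zfp985 and Zfp932 were the named members that passed without each of the 10 libraries in turn. Markers of fibroblasts moved with the cell type: 4 of 6 tested feeder genes were lower in NPC control, and the list of 8 summed to 49.6 to 74.7 RPKM in ESC libraries and 5.84 to 9.39 RPKM in NPC libraries. Lum, also in the list, was at 0 in the 4 ESC libraries and at most 0.0422 RPKM in any library. In the ESC libraries Col1a2 was 13.97 to 21.8 RPKM and S100a4 27.2 to 34.4 RPKM. The part of feeder RNA in these results was not tested.

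Knockdown of Cbx3 in NPCs lowered the RNA of a gene whose protein works downstream of KRAB repression. Of the Zfp genes 9 rose and 14 fell, 8.04% of the members, beside 13.1% of all genes tested (7.8% higher and 5.33% lower). Of the 172 KRAB genes 5 rose and 3 fell, and of the 113 others 4 rose and 11 fell. No member changed by a factor of 2 on the log2(RPKM + 1) scale, and the median change was -0.05 for members and 0.01 for all genes. None of the 12 genes of the chromosome 4 run passed, with changes from -0.32 to 0.22.

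The largest fall was that of Zfp369, also called Nrif2, a KRAB gene related to a partner of the p75 neurotrophin receptor. It was 5.64 and 5.61 RPKM in NPC control, 2.54 and 2.97 RPKM with Cbx3 siRNA and 6.11 and 5.18 RPKM with Med26 siRNA. The log2 change with Cbx3 siRNA was -0.82 (standard error 0.10, adjusted p = 0.00629). Both Cbx3 siRNA libraries lay well below the other 4 NPC libraries.

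Zfp219, a zinc finger factor without a KRAB box that acts with Sox9 in cartilage, was 35.0 and 32.6 RPKM in NPC control, against 22.2 and 20.7 RPKM with Cbx3 siRNA (a log2 change of -0.63, adjusted p = 0.00459). Zfp608 was 3.54 and 3.31 against 2.23 and 1.85 RPKM (-0.54, adjusted p = 0.0145). Zfp217, the mouse form of a breast cancer oncogene whose protein works with CoREST, was 17.98 and 17.3 against 13.7 and 13.4 RPKM (-0.36, adjusted p = 0.0127). For each of these genes the 2 groups did not overlap.

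Zfp771 (-0.49), Zfp770 (-0.41), Zfp365 (-0.41), Zfp532 (-0.34), Zfp830 (-0.33) and Zfp141 (-0.32) fell as well. The smallest called falls were those of Zfp207 (-0.25, from 102 and 102 to 87.3 and 83.8 RPKM) and Zfp266 (-0.24). Zfp608 had been higher in NPC than in ESC control, and Zfp770, Zfp532 and Zfp141 had been lower. The NPC control libraries enter both comparisons, so no overlap is read from this.

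Among the rises, Zfp185, whose protein has a LIM domain and binds the actin cytoskeleton rather than DNA, was 7.73 and 8.06 RPKM in NPC control, against 13.2 and 11.5 RPKM with Cbx3 siRNA (a log2 change of 0.58, adjusted p = 0.0106). Zfp948, a KRAB gene, was 3.85 and 3.93 against 6.86 and 5.70 RPKM (0.57, adjusted p = 0.019). Zfp57 was 7.21 and 6.73 against 9.40 and 9.56 RPKM (0.40, adjusted p = 0.0163).

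Zfp146, a protein made almost only of zinc fingers, was 11.04 and 10.7 RPKM in NPC control, against 14.4 and 15.3 RPKM with Cbx3 siRNA (0.42, adjusted p = 0.0111). Zfp800 (0.45), Zfp180 (0.42), Zfp764 (0.37), Zfp317 (0.35) and Zfp707 (0.34) were the remaining rises. Of the simple epithelium markers 4 of 6 rose, and the list summed to 514 and 529 RPKM in NPC control, against 807 and 836 RPKM with Cbx3 siRNA. In that list Krt18 was 132 and 141 RPKM in NPC control, against 303 and 326 RPKM with Cbx3 siRNA. Epcam (122 and 138 against 128 and 131 RPKM) and Cdh1 (181 and 167 against 163 and 147 RPKM) did not rise. Of the muscle markers 3 of 5 rose, with sums of 378 and 373 RPKM in control and 501 and 523 RPKM with Cbx3 siRNA. Of the neural progenitor markers 3 of 5 tested fell, with sums of 58.5 and 54.6 RPKM in control and 46.0 and 45.8 RPKM with Cbx3 siRNA. The part of these cell type markers in the rises and falls of Zfp genes was not tested.

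**Figure D4:**
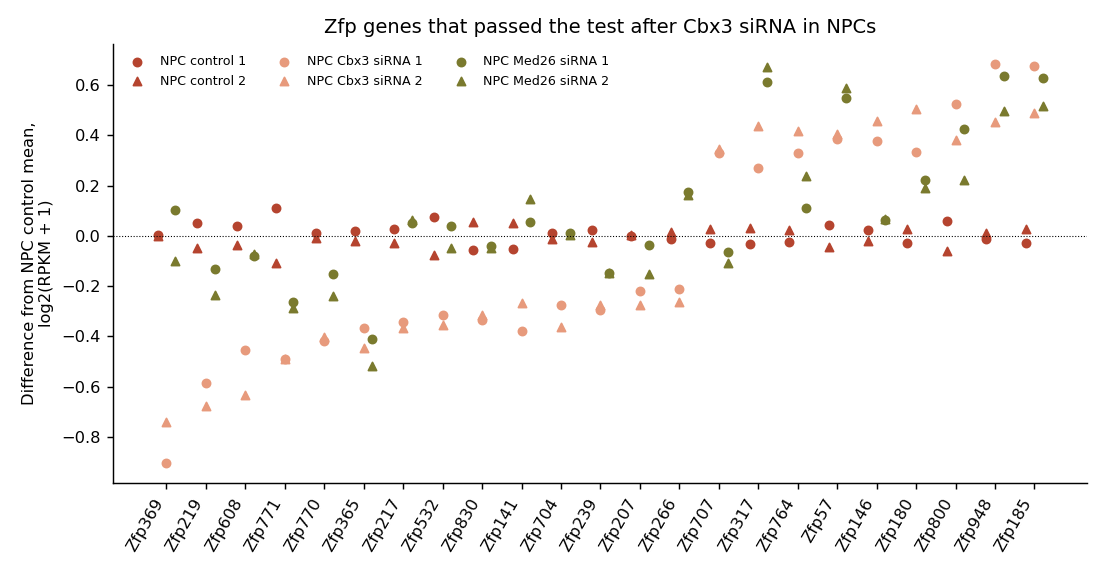
The 23 Zfp genes that passed after Cbx3 siRNA in NPCs, each shown as its difference from the NPC control mean on the log2(RPKM + 1) scale in the 6 NPC libraries (circles replicate 1, triangles replicate 2). Zfp369 has the lowest values; Med26 siRNA libraries lie near 0 for Zfp217 and Zfp532 and near the Cbx3 siRNA libraries for Zfp365, Zfp948 and Zfp185.

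Cbx3 siRNA libraries can also be read by transcript sequence. Earlier work on these same libraries picked the 7 bases GAGAGTT because transcripts that carry it in the 3' UTR fell after Cbx3 siRNA, so its values here are a description and no independent support. GAGAGTT, searched on the transcript strand only, was in 18.3% of the transcripts of 11868 tested genes and in 99 of 285 members, 43 of them in the 3' UTR. It was in 8 of the 14 members that fell (6 in the 3' UTR), in 1 of the 9 that rose (Zfp948) and in 90 of the other 262. Over all genes it was in 34.6% of those that fell, 10.8% of those that rose and 17.96% of the rest. Sites of 6 of the 8 members that fell are shown as 23-base stretches of GENCODE M21 transcripts, with those bases in capitals, together with that of Zfp110, a gene close to Zfp369.
Zfp219: ataggcatGAGAGTTtatttttg
Zfp217: gtgtctcgGAGAGTTgccatatc
Zfp704: gaaagcatGAGAGTTggtgagct
Zfp704: gtcacaggGAGAGTTctgtatgg
Zfp207: taattagaGAGAGTTcctcctgt
Zfp266: gataggctGAGAGTTtttttaaa
Zfp369: gggaaacaGAGAGTTaactccag
Zfp110: gggaaacaGAGAGTTaactccag
In GRCm38 they lie in the last exon of each transcript, in the 3' UTR at chr14:52006220-52006242 (minus strand), chr2:170109847-170109869 (minus strand), chr3:9436170-9436192 and chr3:9431754-9431776 (minus strand), chr11:80396033-80396055 (plus strand) and chr9:20498250-20498272 (minus strand). The sites of Zfp369, at chr13:65296079-65296101 (plus strand), and of Zfp110, at chr7:12848413-12848435 (plus strand), are in coding sequence and read the same over all 23 bases. Zfp369 fell (-0.82), while Zfp110 was 30.1 and 32.3 RPKM in NPC control, against 29.1 and 29.6 RPKM with Cbx3 siRNA (-0.09, adjusted p = 0.381). The median change was -0.14 for the 43 members with the sequence in the 3' UTR, -0.09 for the 56 with it elsewhere only and -0.02 for the 186 without it. With Med26 siRNA the 3 medians were 0.04, 0.01 and 0.02. The sources used here do not give the siRNA sequences.

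**Figure D5:**
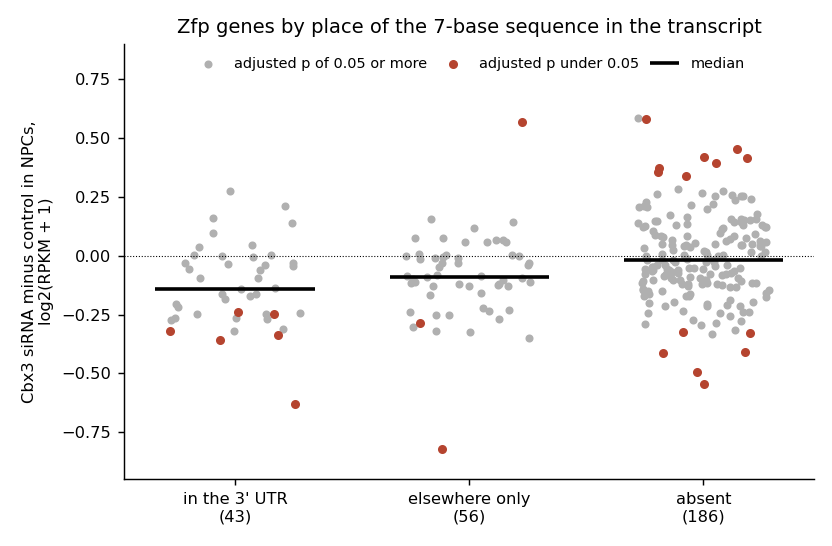
Change of each Zfp gene after Cbx3 siRNA in NPCs on the log2(RPKM + 1) scale, by where its transcript holds the 7-base sequence. Medians (black lines) are -0.14 for 43 genes with it in the 3' UTR, -0.09 for 56 with it elsewhere and -0.02 for 186 without it; 6 of the first 43 fell and 0 rose.

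The calls in NPCs depend on the fit. In the fit of all 10 libraries, which adds the spread between the ESC replicates, 0 members passed with Cbx3 siRNA (0.00836% of all genes, which is 1 gene) and 0 with Med26 siRNA (0.125%, 15 genes). With a replicate block, 55 members (19.2%) passed with Cbx3 siRNA, beside 29.2% of all genes, and 42 (14.7%) with Med26 siRNA, beside 31% of all genes. For Cbx3 siRNA, 2 and 3 members passed without control replicate 1 or 2, 4 without either Cbx3 siRNA library and 11 without either Med26 siRNA library. Zfp369 and Zfp219 passed without each of the 6 libraries, and 10 of the 21 named members lost their call without every one of them in turn.

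Knockdown of Med26 was done in the same cells. Of the Zfp genes 9 rose and 5 fell, 4.9% of the members, beside 13.4% of all genes (6.9% higher and 6.46% lower). The median change was 0.02 for members and -0.001 for all genes. Both siRNA comparisons share the NPC control libraries, so their values are set side by side and no overlap is read from them.

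The largest rise was that of Zfp148, a GC-box binding factor also called ZBP-89. It was 2.06 and 2.079 RPKM in NPC control, 4.03 and 3.90 RPKM with Med26 siRNA and 2.29 and 2.19 RPKM with Cbx3 siRNA. The log2 change with Med26 siRNA was 0.69 (standard error 0.07, adjusted p = 0.00511). Among the NPC libraries, those with Med26 siRNA were the high ones.

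Zfp317, a KRAB gene, was 7.57 and 7.95 RPKM in NPC control, against 12.4 and 13.0 RPKM with Med26 siRNA (a log2 change of 0.64, adjusted p = 0.00756), against 9.57 and 10.9 RPKM with Cbx3 siRNA. Zfp57 was 10.7 and 10.97 RPKM with Med26 siRNA (0.57, adjusted p = 0.00697). Zfp185 (0.57) and Zfp948 (0.57) rose by about as much as with Cbx3 siRNA (0.58 and 0.57). Zfp600 (0.36), Zfp808 (0.33), Zfp933 (0.32) and Zfp91 (0.30), a protein linked to NF-kappaB signalling, were the other rises.

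Of these, Zfp148, Zfp57, Zfp600, Zfp808 and Zfp933 were among the genes that were lower in NPC than in ESC control, as were 49 of all 286 members. Both comparisons use the NPC control libraries, so a low control value moves both, and no overlap is read from them. Zfp600, at 2.71 and 2.53 RPKM with Med26 siRNA, lay well below its 9.62 to 13.9 RPKM in ESCs. Zfp148 with Med26 siRNA lay above its 3.24 to 3.54 RPKM in ESCs, and the Zfp933 values with Med26 siRNA overlapped its ESC values. Simple epithelium markers moved with this comparison, as 5 of 6 rose and the list summed to 715 and 739 RPKM with Med26 siRNA, beside 514 and 529 RPKM in control. Of the muscle markers 3 of 5 rose. Of the pluripotency markers 4 of 10 rose and 1 fell. Their list summed to 892 and 903 RPKM in NPC control, against 847 and 884 RPKM with Med26 siRNA. Single markers went both ways. Klf4, below 1 RPKM, was 0.458 and 0.352 RPKM in NPC control, against 0.929 and 0.855 RPKM with Med26 siRNA. Nanog was 24.3 and 23.5 RPKM in NPC control, against 18.1 and 18.6 RPKM with Med26 siRNA. The part of these cell type markers was not tested.

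The 5 falls were those of Zfp787 (-0.50), Zfp946 (-0.50), Zfp523 (-0.47), Zfp365 (-0.46) and Zfp454 (-0.36). Zfp365, a centrosome protein with no C2H2 finger by the pattern used, was 11.1 and 10.8 RPKM in NPC control, 7.97 and 7.32 RPKM with Med26 siRNA and 8.24 and 7.75 RPKM with Cbx3 siRNA. The KRAB gene Zfp946 was 1.41 and 1.49 RPKM in control, against 0.763 and 0.715 RPKM with Med26 siRNA. Without Med26 siRNA replicate 1 or 2, 0 and 1 members passed, without control replicate 1 or 2 there were 2 and 1, and 0 of the 14 named members passed without each of the 6 libraries.

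The direct comparison of Cbx3 with Med26 siRNA in NPCs cancels the shared control. Here 24 members were lower and 6 higher with Cbx3 siRNA, 10.5% of the members, beside 18.3% of all genes (10.4% higher and 7.87% lower). Of the 24 lower members 12 have a KRAB box. With the replicate block 59 members (20.6%) passed, beside 35.4% of all genes, in the fit of all 10 libraries 2 (beside 1% of all genes), and 25 without either control library. Without Cbx3 siRNA replicate 1 or 2 there were 12 and 6, and without Med26 siRNA replicate 1 or 2 there were 3 and 10.

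Zfp369 (-0.82, adjusted p = 0.00527) and Zfp148 (-0.62, adjusted p = 0.00487) were among the 5 lowest changes, which also held 2 genes of the chromosome 4 run. Zfp980 was 2.62 and 2.63 RPKM with Cbx3 siRNA, 5.57 and 4.46 RPKM with Med26 siRNA and 3.37 and 3.68 RPKM in control (Cbx3 against Med26 -0.72, adjusted p = 0.00862). Zfp600 was 1.47 and 1.54 against 2.71 and 2.53 RPKM (-0.53, adjusted p = 0.0074). Control lay between the siRNA groups for both genes. Zfp629, with 1.76 and 1.62 against 2.77 and 3.02 RPKM, was lower as well (-0.53, adjusted p = 0.0194).

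Higher with Cbx3 than with Med26 siRNA were Zfp251 (0.44), Zfp707 (0.42), Zfp618 (0.42), Zfp946 (0.40) and Zfp146 (0.35). Zfp251 was 7.01 and 7.81 RPKM with Cbx3 siRNA, 5.09 and 5.28 RPKM with Med26 siRNA and 6.39 and 6.69 RPKM in control. Zfp445 (-0.43, adjusted p = 0.0107) and Zfp281 (-0.37, adjusted p = 0.0149), from the fixed set, were lower with Cbx3 siRNA. From the same set, Zfp217, Zfp219, Zfp292 and Zfp532 passed the limma test as lower too. Their adjusted p values were 0.00685, 0.00955, 0.028 and 0.03285. Zfp991 was the only gene of the run that passed as higher with Cbx3 siRNA (0.27, adjusted p = 0.0465), at 1.96 and 1.99 against 1.45 and 1.501 RPKM. Its change was thus opposite in sign to those of Zfp980 and Zfp600. The share of transcript stretches also found in other genes was 86.7% for Zfp991, 82.55% for Zfp600 and 71.3% for Zfp980. Their single levels are therefore uncertain, and no difference in direction between genes of the run is read from them. The part of shared reads here was not tested.

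In ESCs, Cbx3 siRNA changed 0 members past the threshold, as it did 0 of all 11956 genes tested by limma (0% called). The target Cbx3 itself was among the genes that did not pass. It was 13.99 and 56.4 RPKM in ESC control, against 1.007 and 1.96 RPKM with Cbx3 siRNA. The count of 0 thus does not show that there was no response. At an unadjusted p under 0.05 there were 14 members and 645 genes. A blocked fit, with the replicate number as a term, called 12 members (3 higher and 9 lower), 4.2% of them, beside 6.8% of all genes in that fit. The lowest change was again that of Zfp369, at 6.43 and 6.05 RPKM in ESC control, against 3.30 and 3.03 RPKM with Cbx3 siRNA (-0.80, standard error 0.11, adjusted p = 0.262). The ESC groups of Zfp369 did not overlap, and the ratio of means was 0.507 in ESCs and 0.49 in NPCs.

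Zfp532 (-0.63), Zfp763 (-0.51), Zfp608 (-0.43) and Zfp72 (-0.40) had the next lowest changes in ESCs. Zfp532 was 19.96 and 15.99 RPKM in ESC control, against 10.4 and 12.2 RPKM with Cbx3 siRNA. The highest were Zfp185 (0.42), Zfp951 (0.41), Zfp317 (0.38), Zfp808 (0.35) and Zfp524 (0.30). Zfp185 was 2.07 and 4.51 RPKM in ESC control, against 3.06 and 6.43 RPKM with Cbx3 siRNA, higher in both same-numbered pairs of libraries although the groups overlapped.

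The response to Cbx3 siRNA was not shown to differ between the cell types for any member. In the test of the difference, 0 members and 0 genes of all tested (0%) passed by limma, and at an unadjusted p under 0.05 there were 0 members and 233 genes. With the replicate block 0 members passed, beside 0.0502% of all genes. The widest differences were 0.65 for Zfp672 (standard error 0.56) and -0.44 for Zfp951 (standard error 0.23). For Zfp36, whose protein speeds the decay of AU-rich mRNAs, the difference was 0.48 with a standard error of 0.54. For Zfp672, Zfp951 and Zfp36 alike the difference was smaller than 2 standard errors.

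The partners of KRAB proteins were taken from a list of 34 genes for TRIM28, its partners and the HUSH and G9a complexes, 33 of them tested. Trim28 itself was 541 and 565 RPKM in NPC control, against 599 and 488 RPKM in ESC control (a log2 change of 0.03, adjusted p = 0.905). Between NPC and ESC control 2 partners rose (Chd3 and Pphln1) and 3 fell (Dnmt3l, Smarcad1 and Tasor), with a median of -0.13. Of all genes tested, 10.1% were higher and 5.94% lower in that comparison. Trim28 levels of the 2 cell types overlapped.

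With Cbx3 siRNA in NPCs, 8 of the 33 partners fell, the siRNA target Cbx3 itself among them, and 1 rose. Of all genes tested, 5.33% fell and 7.8% rose. Ehmt2, which encodes the histone methyltransferase G9a, was 31.8 and 30.8 RPKM in NPC control, against 10.3 and 10.1 RPKM with Cbx3 siRNA (a log2 change of -1.53, adjusted p = 0.000175). Its partner Ehmt1 (-0.40), the DNA methyltransferases Dnmt3a (-0.69) and Dnmt3b (-0.76), Rcor1 (-0.45) and Hdac2 (-0.25) were among those that fell, and Dnmt3l rose (0.42). Trim28 (-0.03) and Setdb1 (-0.07) did not pass. With Med26 siRNA 3 partners rose (Rcor1, Atrx and Tasor) and 1 fell, beside 6.9% of all genes higher and 6.46% lower.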

How the data were processed

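Total RNA was taken up in Trizol and sequenced as TruSeq RNA libraries, per the labels' protocols. The authors deposited 1 table of RPKM values per RefSeq transcript accession for 10 libraries. The submitters' processing notes name TopHat2 2.08 and build mm9. How reads were counted, with which annotation, and whether strand or multiple matches were considered is not stated in the labels and was not given in the sources used here. RPKM values carry no counts, so the depth per library is unknown.

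A symbol was found for 99.07% of 35860 rows through RefSeq's GRCm38.p6 gene table, which also gave gene order. The row of highest mean RPKM stood for each gene, a choice that touched 82 members. The test was limma 3.58.1 (R 4.3.3) on log2(RPKM + 1), two-sided, with an empirical Bayes trend, Benjamini-Hochberg adjusted over 11956 genes at 0.05. Comparisons within NPCs used the 6 NPC libraries and the others all 10. Fold changes on this scale understate changes of low genes. The scripts were tested on simulated data.

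The members and all lists were chosen with earlier results of these data known. Named are the 10 largest called rises and falls for Cbx3 siRNA and Med26 siRNA in NPCs and for NPC against ESC control, the 5 highest and 5 lowest changes of the other comparisons, the 10 highest means, the members next to the threshold, a set with known roles and the partner list. The smaller called falls with Cbx3 siRNA (Zfp704, Zfp239, Zfp207 and Zfp266) and single genes of the chromosome 4 run outside this rule were chosen after their values were seen. Same-numbered NPC libraries deviated together (correlations 0.423 to 0.461 between groups), so blocked counts stand beside the NPC counts. KRAB boxes were found in GENCODE M21 translations with a HMMER 3.4 profile built from 54 windows of the members (E value 1e-05), and fingers by a C2H2 pattern. No GRCm38 coordinate was joined to the mm9 values. Marker lists covered pluripotent, neural progenitor, neuron, fibroblast feeder, simple epithelium, endoderm and muscle cells. The values of 1 gene of the partner list are not reported here.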

Additional observations from a re-analysis of the deposited data

How the results depend on the processing

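The counts of members that passed were 23, 14, 30, 61, 0 and 0 for Cbx3 siRNA in NPCs, Med26 siRNA in NPCs, Cbx3 against Med26 siRNA, NPC against ESC control, Cbx3 siRNA in ESCs and the difference of the Cbx3 responses. A pseudocount of 0.1, the sum of the rows of a gene and equal medians in each library kept each count within 1.5 times. With no filter on low values the first 3 counts were 10, 5 and 17. With at least 5 RPKM in at least 2 libraries the count for NPC against ESC control was 37 of 120 members fitted. With the replicate block within each cell type the counts were 55, 42, 59, 169, 12 and 0. The fit of all 10 libraries gave 0, 0 and 2 for the NPC comparisons, and the fit of the 4 control libraries gave 6 for NPC against ESC control. A fit of the 4 ESC libraries with the replicate block, chosen after seeing the data, gave 1. Leaving out 1 library at a time gave 2 to 11, 0 to 11, 3 to 25 and 11 to 77 for the first 4 comparisons and 0 for the others; a group left with 1 library is assumed to vary like the others. The cause of these moves was not tested, except that the stricter filter fitted fewer members. In ESCs the same-numbered libraries deviated together (correlation 0.892), with only 2 numbers. Of the values of single named members under these alternatives, 4392 stayed on their side of the threshold, 413 lost the call and 70 gained it. None that passed in the main or the alternative fit changed direction. Changes of direction among values that passed in neither fit were not counted apart. With 2 libraries a group and a median level of 3.34 RPKM, small changes of low members could not be detected.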

Other observations

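In ESC control replicates 1 and 2 the simple epithelium list summed to 217 and 352 RPKM, the muscle list to 66.3 and 146 RPKM and the pluripotent list to 1669 and 1152 RPKM. With Med26 siRNA in NPCs the muscle list summed to 643 and 692 RPKM. The neural progenitor list summed to 19.8 and 29.5 RPKM in ESC control and to 63.8 and 63.3 RPKM with Med26 siRNA in NPCs. Endoderm genes summed to 0.713 to 2.52 RPKM over the 10 libraries, and neuron genes to 73.2 to 119 RPKM.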
